A study of Mus musculus with 3 samples.

Results

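Keratinocytes of the anorectal junction were compared between acute colitis and recovery, cluster by cluster. The cells were those that the deposited cell table assigned to its keratinocyte clusters 1, 3, 4, 5, 8, 9, 12, 13 and 17. They numbered 16982 of the 26043 cells in the day 7 and day 42 libraries, with 9015 of 14376 at day 7 and 7967 of 11667 at day 42. The study profiled single cells from the distal colon and anus, pooled, of C57Bl/6 mice bought at 6 weeks of age. Mice of the day 7 and day 42 groups had received 3% dextran sulfate sodium (DSS), which damages the epithelium of the colon, in their drinking water for 6 days, and day 0 mice were untreated. Day 7 was the colitic group and day 42 the recovered group. Each day was 1 library made from the pooled tissue of 5 mice, so a day cannot be told apart from its pool, its digestion and its library, and no test between days was possible. Trypsin digestion and removal of dead cells preceded capture on droplets, so only cells that survived both were counted.

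The anal canal is lined by stratified squamous epithelium, in which basal keratinocytes divide on a basement membrane and their daughters differentiate upward into keratin-rich layers. Between this lining and the columnar colon lies a transition zone whose cells also make simple-epithelial keratins, and hair follicles, sebaceous glands and gland ducts open nearby. Inflamed keratinocytes are known to release antimicrobial proteins and chemokines that draw neutrophils, and wounded ones to switch on keratins of migrating epithelium.

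Values are unique molecular identifier (UMI) counts, each standing for 1 captured RNA molecule. UMIs of a gene were summed over the cells of a cluster and day and expressed as counts per 1e6 UMIs of that cluster and day (CPM). The day 42 level was divided by the day 7 level after adding 10 CPM to both, and the log2 of this ratio is given, so that a value of 1 is a 2-fold higher level at day 42. A gene counted as measured in a cluster when the higher of the 2 days had at least 20 CPM and 10 UMIs. Intervals are exact 95% intervals (Poisson for levels, Clopper-Pearson for shares) and cover counting error only.

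All 14 keratinocyte markers had UMIs in each of the 9 clusters on both days, with summed levels from 4798 to 43748 CPM. The lowest sums were those of cluster 13, which was led by immunoglobulin genes and then by lipid enzymes of sebocytes such as Scd1, Cers4 and Fa2h. The summed level of 12 neutrophil markers ran from 314 to 6835 CPM over the clusters at day 7 and from 39.9 to 508 CPM at day 42. At day 7 all 12 had UMIs in each cluster, while at day 42 Mmp8 was at 0 in 5 clusters, Cxcr2 in 4 and Ly6g in 3. Median UMIs per cell were 1.66 (cluster 12) to 2.87 (cluster 17) times as high at day 7 as at day 42. Between the libraries 21 barcodes of keratinocyte cells were shared, and 55 over all cells. Doublets were not removed.

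The clusters took different shares of the keratinocytes on the 2 days. Cluster 1 rested on 563 cells at day 7 and 3043 at day 42, or 6.25% (5.75 to 6.76) and 38.2% (37.1 to 39.3) of the 9 clusters' cells. Cluster 5 rested on 162 and 2153 cells (1.80% and 27.0%). Clusters 1 and 5 were thus the ones with larger shares at day 42, and the other 7 had smaller ones. Cluster 12 held 1668 and 152 cells (18.5% and 1.91%), cluster 13 held 1138 and 106 (12.6% and 1.33%), and cluster 17 held 236 and 63 (2.62% and 0.791%). Clusters 3, 4, 8 and 9 took 21.997%, 14.6%, 10.5% and 11.2% at day 7 and 12.2%, 8.23%, 4.57% and 5.72% at day 42. A level summed over all keratinocytes follows this mix as well as expression, which is why each ratio here was taken within a cluster.

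Few genes passed 2-fold in the same direction in most clusters. Of 4890 genes measured in at least 6 clusters, 12 (0.245%) were at least 2-fold lower at day 42 in 6 or more clusters and 3 (0.0613%) were at least 2-fold higher. By contrast 568 passed 2-fold in 1 cluster alone, 340 of them in cluster 12, and 4128 passed in none. The lower genes were mainly antimicrobial and inflammatory genes and haemoglobins. The higher genes were Ltf, Psca and Dbp.

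**Figure D1:**
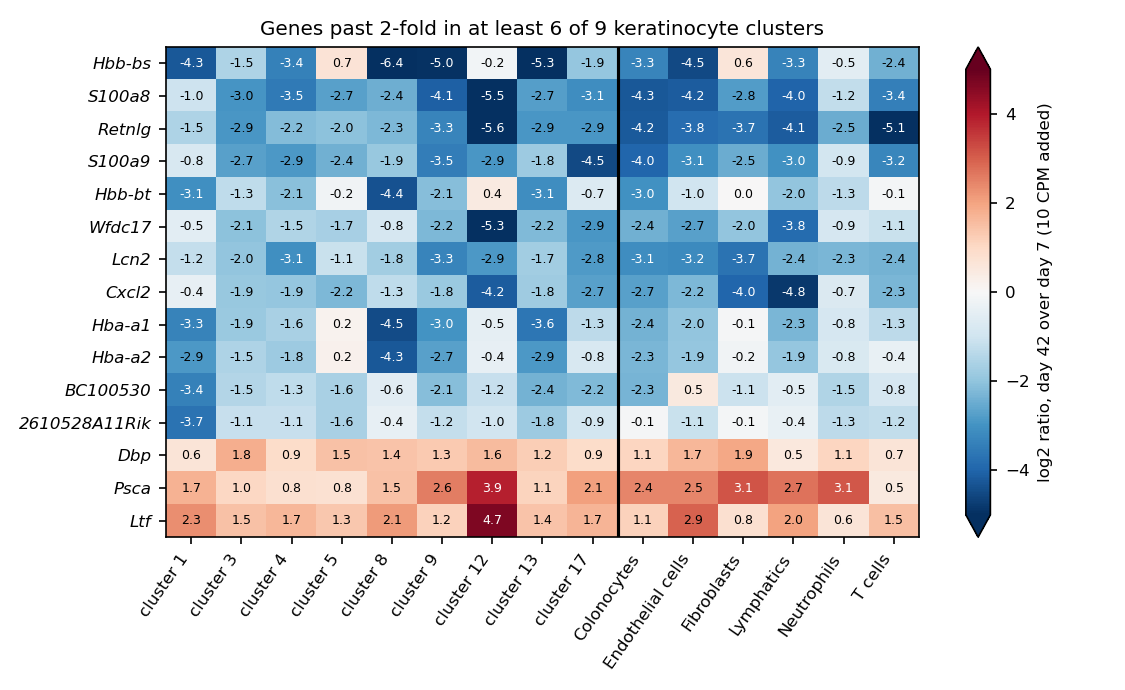
Log2 ratio of day 42 over day 7 (10 CPM added) for the 15 genes past 2-fold in at least 6 of the 9 keratinocyte clusters, with genes in rows, clusters left of the black line and 6 other cell classes right of it. Blue cells (lower at day 42) fill most rows on both sides of the line, and the 3 red rows are Ltf, Psca and Dbp.

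Calprotectin and other neutrophil-associated genes were much lower after recovery in nearly every cluster. S100a8 (chr3:90668978-90670035, GRCm38) and S100a9 (chr3:90692632-90695721) encode the subunits of calprotectin, a metal-binding antimicrobial protein of neutrophils that inflamed keratinocytes also make. S100a8 stood at 95.1, 315, 1192, 367, 437, 1122, 2215, 479 and 232 CPM at day 7 in clusters 1, 3, 4, 5, 8, 9, 12, 13 and 17, and at 41.4, 31.9, 94.99, 48.2, 73.2, 56.0, 38.3, 63.0 and 17.7 CPM at day 42. The highest day 42 cluster therefore lay just below the lowest day 7 cluster, and the log2 ratio ran from -5.53 in cluster 12 to -1.03 in cluster 1 with a median of -2.96. At day 0 S100a8 was between 0 and 10.9 CPM in 8 clusters and 102 CPM in cluster 12. S100a9 was at 141 to 3441 CPM at day 7 and 4.43 to 455 CPM at day 42, passing 2-fold in 8 clusters (median log2 ratio -2.71), with cluster 1 short of it at -0.79. Retnlg, which encodes a secreted resistin-like protein abundant in neutrophils, was at 38.2 to 715 CPM at day 7 and at most 21.95 CPM at day 42 (median -2.90, 9 of 9 clusters). Wfdc17, a whey acidic protein family gene of myeloid cells, was at 374 CPM in cluster 12 at day 7 (1433 UMIs) and had no UMI there at day 42, which makes it at least 26.0-fold lower against a floor of 3 counts in that cluster. It passed 2-fold in 7 of the 8 clusters in which it was measured, and in 5 with its 10 richest cells left out.

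These genes were lower outside keratinocytes too. In the 6 other cell classes with at least 50 cells on both days the median log2 ratio was -3.72 for S100a8, -3.04 for S100a9, -3.98 for Retnlg and -2.20 for Wfdc17. Neutrophils themselves had 89485 CPM of S100a8 at day 7 and 37677 CPM at day 42. UMIs of the 10 richest cells made up between 13.3% and 85.5% of the S100a8 count of a cluster at day 7, and the median ratio was -4.03 with those cells left out. After the UMIs per cell of the lowest other class were subtracted, S100a8 remained past 2-fold lower in 6 clusters (median -2.02), whereas Retnlg (5 clusters, median -1.30), S100a9 (5 clusters, median -2.02) and Cxcl2 did not reach that number. S100a9 was then 2-fold higher at day 42 in clusters 1 and 8, where nothing was left of its day 7 level, and S100a8 and Wfdc17 were 2-fold higher in 1 cluster each. The part of neutrophil RNA in these ratios was not tested further.

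Lcn2 (chr2:32384633-32388252), which encodes lipocalin 2, a protein that starves bacteria of iron by binding their siderophores, was lower in all 9 clusters. It was highest in clusters 13 and 8 on all 3 days, at 496, 1547 and 462 CPM on days 0, 7 and 42 in cluster 13 and at 271, 758 and 217 CPM in cluster 8. In cluster 4 it was at 5.27, 187 and 13.3 CPM, and in the other 6 clusters it lay between 31.2 and 271 CPM at day 7 and between 0 and 28.7 CPM at day 42. The ratio was shallowest in cluster 5 (-1.13) and steepest in cluster 9 (-3.28), with a median of -1.98. After the subtraction of free RNA it passed 2-fold in 7 clusters, and was at -0.27 in cluster 1 and -0.76 in cluster 5. The 10 richest cells held 7.03% of the cluster 13 count at day 7, so the level there was spread over many cells, 883 of which had a UMI. Cxcl2 (chr5:90903871-90905938), a chemokine that attracts neutrophils, was at 20.7 to 342 CPM at day 7 and 0 to 25.7 CPM at day 42, past 2-fold in 8 clusters with a median of -1.88, and in 5 measured clusters with its 10 richest cells left out. Its median was 0.00 after the subtraction of free RNA. Lcn2 was lower in all 6 other classes as well (median -2.74), at 6552 and 1352 CPM on days 7 and 42 in neutrophils and at 3221 and 616 CPM in lymphatics. Cxcl2 passed 2-fold in 5 of the 6 and was at 12525 and 7551 CPM in neutrophils. The part of neutrophil RNA in the keratinocyte levels of either gene was not tested further.

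BC100530 and 2610528A11Rik were, like Lcn2, already present in some keratinocyte clusters at day 0. BC100530 (chr16:36359382-36367748) lies among the stefin A genes, which encode inhibitors of cysteine proteases and are near-identical copies, so its counts are uncertain. It stood at 1059, 3187 and 1314 CPM on days 0, 7 and 42 in cluster 4, at 170, 1164 and 261 CPM in cluster 9 and at 94.3, 301 and 20.3 CPM in cluster 1. Cluster 8 was the exception, at 463, 955 and 646 CPM (log2 ratio -0.56). The median over the 9 clusters was -1.64, against -0.96 in the other classes, of which 3 of 6 passed 2-fold. 2610528A11Rik, which encodes the ligand of the receptor GPR15, was highest in cluster 4 at 507, 1302 and 586 CPM, while the largest ratio was in cluster 1, at 138, 689 and 44.1 CPM (-3.69). This gene lay outside the naming rule and was named after its values were seen. In cluster 1 both genes were lower at day 42 than at day 0, and in cluster 4 both were above the day 0 level.

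The haemoglobin genes Hbb-bs, Hbb-bt, Hba-a1 and Hba-a2 made up the remaining 4 of the 12 and lay outside the naming rule. Their median ratios were -3.37, -2.07, -1.85 and -1.82. They are near-identical pairs and their split is uncertain. Hbb-bs was at 905 CPM in cluster 8 at day 7 and 0.703 CPM at day 42, but in cluster 12 it was at 3893 and 3495 CPM, and in cluster 5 it was higher at day 42 (log2 ratio 0.69). Summed erythroid markers ran from 22.4 to 7167 CPM over clusters at day 7 and from 0 to 6406 CPM at day 42, and that list includes these genes. With the 10 richest cells of each gene left out none of the 4 passed 2-fold in 6 measured clusters, with 2 clusters each for Hbb-bt, Hba-a1 and Hba-a2 and 4 for Hbb-bs.

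**Figure D2:**
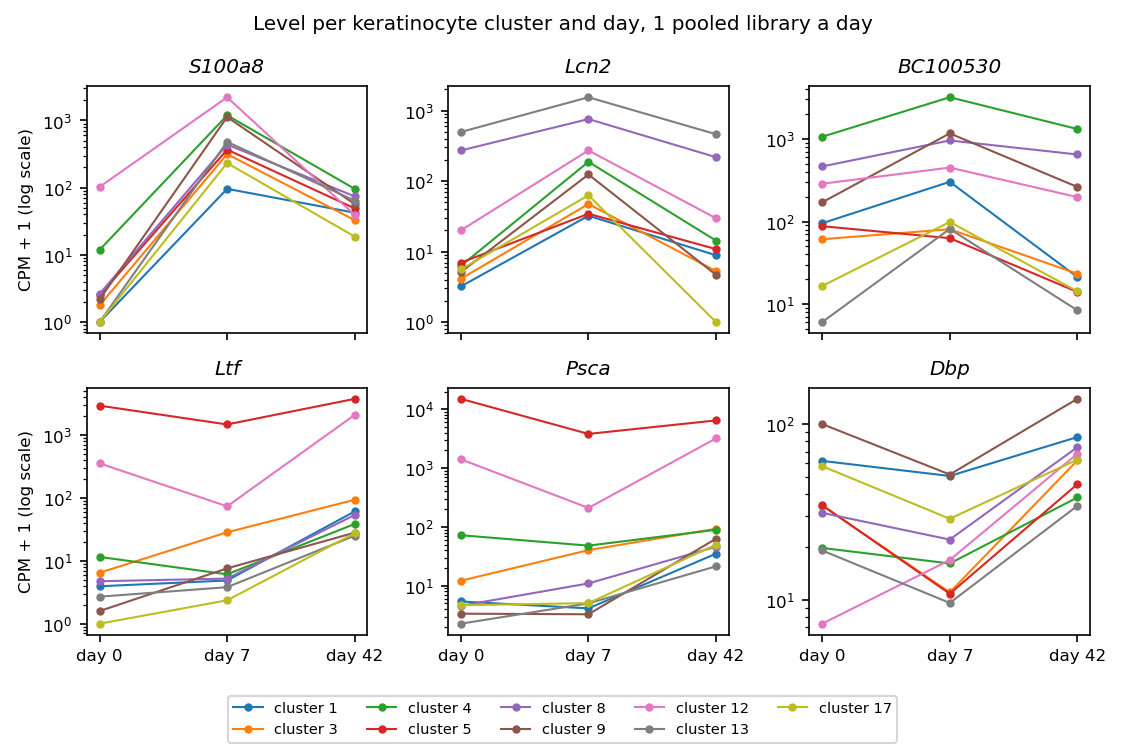
CPM plus 1 on a log axis at day 0, day 7 and day 42 for 6 genes, 1 line per keratinocyte cluster and 1 pooled library a day, with no error bars. S100a8 and Lcn2 peak at day 7 in all 9 clusters and BC100530 in 8, while Ltf, Psca and Dbp are higher at day 42 than at day 7 in all 9.

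The promoters of Lcn2, Cxcl2 and 2610528A11Rik are shown because their genes passed 2-fold downward together and their windows hold letters of the NF-kappaB consensus, a motif bound by a transcription factor of inflammation. They are RefSeq sequences of build GRCm38.p6, from 250 bases before to 50 after the gene start in RefSeq, printed 5′ to 3′ on the gene's strand, with capitals marking each match to GGGNNNNTCC on either strand. The windows are chr2:32387690-32387989 (minus strand), chr5:90903649-90903948 (plus strand) and chr14:37110052-37110351 (minus strand). These RefSeq starts lie inside the GENCODE gene spans, so the windows of Lcn2 and 2610528A11Rik fall within the annotated genes.
Lcn2: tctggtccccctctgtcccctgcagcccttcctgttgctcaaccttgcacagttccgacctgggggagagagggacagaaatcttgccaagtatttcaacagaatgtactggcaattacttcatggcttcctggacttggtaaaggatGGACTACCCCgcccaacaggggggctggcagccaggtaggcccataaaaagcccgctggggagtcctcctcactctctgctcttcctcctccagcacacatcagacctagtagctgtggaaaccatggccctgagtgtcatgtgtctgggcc
Cxcl2: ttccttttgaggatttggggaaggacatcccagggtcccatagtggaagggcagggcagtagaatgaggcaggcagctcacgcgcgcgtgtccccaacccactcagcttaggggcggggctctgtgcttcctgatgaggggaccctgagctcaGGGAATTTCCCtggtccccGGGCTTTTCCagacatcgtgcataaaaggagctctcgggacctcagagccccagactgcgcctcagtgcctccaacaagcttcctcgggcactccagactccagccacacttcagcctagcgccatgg
2610528A11Rik: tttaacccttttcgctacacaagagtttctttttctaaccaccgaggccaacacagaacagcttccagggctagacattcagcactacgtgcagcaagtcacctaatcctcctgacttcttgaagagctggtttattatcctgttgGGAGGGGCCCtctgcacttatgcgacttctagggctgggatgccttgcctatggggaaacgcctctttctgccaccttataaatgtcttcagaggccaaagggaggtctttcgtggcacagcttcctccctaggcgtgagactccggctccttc
Cxcl2 held 3 matches, a pair of them overlapping in the longer run of capitals, and the other promoters held 1 each. Of the 11 lower genes with a promoter sequence 5 held the motif, the others being Hba-a1 and Hba-a2, against 19.2% of all 32851 promoters. A gene counted when any of its promoters matched, whereas the 19.2% is a share of single promoters, so the units differ. Hba-a1 and Hba-a2 are near-identical genes and not separate cases. The E-box CACGTG was in none of the 11 lower genes and in 7.15% of all promoters. A match is a run of letters and was not tested as a binding site.

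Ltf (chr9:111019271-111042767), which encodes the iron-binding antimicrobial protein lactoferrin, was the exception among antimicrobial genes and was higher at day 42. In cluster 5, where it was most abundant, it was at 2951, 1481 and 3788 CPM on days 0, 7 and 42 (day 7 interval 1441 to 1522, day 42 interval 3760 to 3816). In cluster 12 it was at 355, 72.7 and 2102 CPM, the largest ratio of the 9 at 4.67. The day 0 cells of cluster 12 carried hair keratins that were nearly absent on days 7 and 42, as described below. Its day 0 values, here and for the genes below, are therefore not from like cells. In the other 7 clusters Ltf was at 1.36 to 27.5 CPM at day 7 and 24.1 to 92.8 CPM at day 42. It passed 2-fold in the 8 clusters in which it was measured, with a median of 1.66. After the subtraction of free RNA it passed in 6, while clusters 9, 13 and 17 missed both 2-fold and the minimum for a measured gene. In those 7 clusters the level is low, and other classes had 35.1 to 173 CPM of Ltf at day 42, with 4 of 6 past 2-fold, 2 of them below 10 UMIs on both days. Psca, which encodes a small membrane-anchored surface protein, was at 15015, 3804 and 6452 CPM in cluster 5 (log2 ratio 0.76) and at 1408, 209 and 3193 CPM in cluster 12 (3.87). It passed 2-fold in 7 clusters (median 1.46), and also in 5 of 6 other classes, where its day 42 level was 25.1 to 140 CPM. Only 5 clusters passed both 2-fold and the minimum for a measured gene when free RNA was subtracted, and likewise when the 5% deepest cells were left out. At day 42 clusters 5 and 12 carried both genes at levels above those of the other 7 clusters and the 6 classes.

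Dbp (chr7:45705088-45710203), a transcription factor driven by the circadian clock, was higher at day 42 in all 9 clusters and passed 2-fold in 6. Its levels at day 7 were 49.9, 10.1, 15.2, 9.87, 21.1, 50.8, 15.9, 8.64 and 28.0 CPM in clusters 1, 3, 4, 5, 8, 9, 12, 13 and 17, and at day 42 they were 83.7, 61.3, 37.4, 44.6, 73.2, 139, 67.0, 33.4 and 62.0 CPM. Clusters of the 2 days overlapped in level, with clusters 1 and 9 highest on both, and the ratio ran from 0.65 in cluster 1 to 1.83 in cluster 3 with a median of 1.29. It passed in fewer than 6 clusters with the filter on cells and with cluster 12 left out (5 each). Day 0 levels lay between 6.34 and 99.4 CPM. Other classes had a median of 1.08, with 4 of 6 past 2-fold, among them neutrophils at 7 and 5 UMIs, and the hour of tissue collection is not given in the sources used here. With each cell thinned to 1000 UMIs the medians of Ltf, Psca and Dbp were 1.59, 1.42 and 1.31, yet none of the 3 kept 6 clusters past both 2-fold and the minimum of 10 UMIs. With the 10 richest cells left out their medians were 0.86, 0.98 and 0.83, and none passed 2-fold in 6 clusters.

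At a lower bar of 1.5-fold in at least 6 clusters, 16 genes (0.327%) were higher and 24 (0.491%) lower, and the added genes were named after their values were seen. The 13 added higher genes included Pdlim4, a cytoskeletal adaptor (median log2 ratio 1.13), Nr1d1, a repressor of the clock (1.07), and the antigen presentation genes Psmb8 (1.07) and B2m (0.97). Pdlim4 was at 11.5 CPM in cluster 3 at day 7 and 165 CPM at day 42, and at 34.8 and 212 CPM in cluster 5, but at 62.0 and 53.1 CPM in cluster 17. The 12 added lower genes included Slpi, a protease inhibitor of mucosal defence (-1.73), the cytokine Il1b (-1.54), the acute-phase gene Saa1 (-1.23), Krt17 (-0.99) and the sterol enzyme gene Idi1 (-0.87). Slpi was at 173 and 45.2 CPM in cluster 4 on days 7 and 42 and at 49.3 and 7.42 CPM in cluster 3, but at 46.7 and 66.7 CPM in cluster 13. Il1b was at 422 CPM in cluster 12 at day 7 and 4.79 CPM at day 42.

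Gene lists were then read cluster by cluster, as the median log2 ratio of the measured members. The antimicrobial and acute-phase list was below 0 in all 9 clusters, from -0.79 in cluster 1 to -2.90 in cluster 17. All measured genes together had medians between -0.24 and 0.06. The cluster 1 median was the value of S100a9 among 7 measured members, and the cluster 17 median that of Retnlg among 5. Both genes are neutrophil markers as well. After the subtraction of free RNA S100a9 was at 1.87 in cluster 1 and Retnlg at 0 in cluster 17. Of the 14 members measured in cluster 12, 12 were at least 2-fold lower against 11.2% of all genes there, and Ltf was the only one 2-fold higher in any cluster. Chemokines and cytokines had a median of cluster medians of -0.60 and were below 0 in 5 of 7 clusters, and targets of NF-kappaB had -0.27 and were below 0 in 8 of 9. Summed neutrophil markers were lower at day 42 too, as given above, but that list shares S100a9 and Retnlg with the antimicrobial list.

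**Figure D3:**
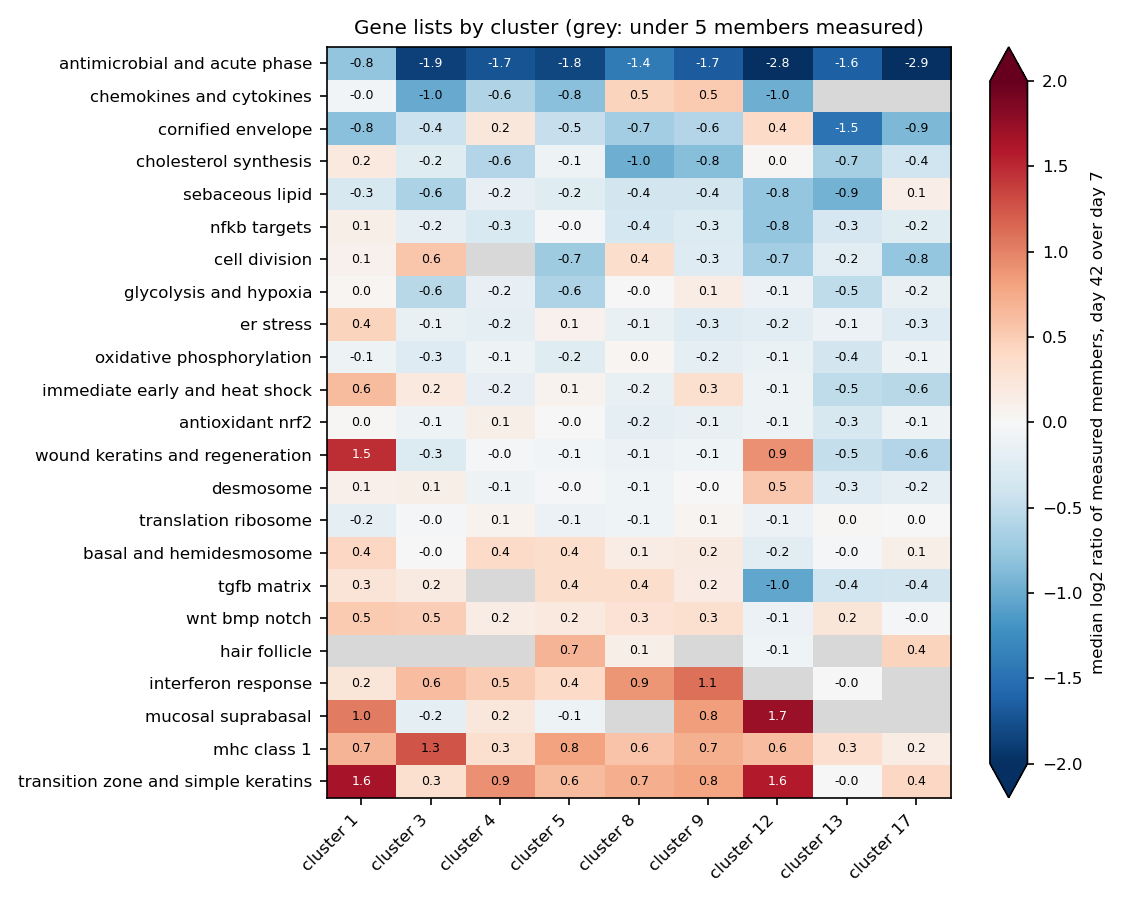
Median log2 ratio of day 42 over day 7 for the measured members of each gene list (rows) in each keratinocyte cluster (columns), with grey where under 5 members were measured. The antimicrobial row is blue in all 9 clusters and the MHC class 1 row red in all 9, while the wound row is red in clusters 1 and 12 and near or below 0 in the others.

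The list of MHC class 1 antigen presentation genes had a median above 0 in every cluster, most of all in cluster 3. The list median was 1.25 in cluster 3, where 11 of 12 measured members passed 2-fold against 2.06% of all genes, and between 0.15 (cluster 17) and 0.80 (cluster 5) in the others. B2m (chr2:122147686-122153083), the shared light chain of class 1 molecules, was at 56.7, 43.6 and 197 CPM on days 0, 7 and 42 in cluster 3, at 46.4, 42.4 and 180 CPM in cluster 5 and at 63.9, 80.7 and 210 CPM in cluster 1. In clusters 12 and 17 it differed little between days, with ratios of 0.27 and 0.21. By median over the clusters in which they were measured, the highest members were H2-Q7, a nonclassical class 1 heavy chain (1.304), and Psmb8, a subunit of the immunoproteasome (1.11), and the lowest were Psmb10 (0.10) and H2-D1 (0.39). H2-Q7 was at 1.99 and 41.6 CPM in cluster 3 and at 89.4 and 187 CPM in cluster 8. Psmb10, another immunoproteasome subunit, was lower in cluster 3 (-0.45). The day 42 level of B2m in clusters 1, 3 and 5 was above that of untreated mice as well.

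The B2m promoter is shown for its match to letters of the interferon-stimulated response element, in capitals (GAAANNGAAA, either strand, RefSeq, GRCm38.p6, chr2:122147437-122147736, plus strand), which were in 3.44% of all promoters.
B2m: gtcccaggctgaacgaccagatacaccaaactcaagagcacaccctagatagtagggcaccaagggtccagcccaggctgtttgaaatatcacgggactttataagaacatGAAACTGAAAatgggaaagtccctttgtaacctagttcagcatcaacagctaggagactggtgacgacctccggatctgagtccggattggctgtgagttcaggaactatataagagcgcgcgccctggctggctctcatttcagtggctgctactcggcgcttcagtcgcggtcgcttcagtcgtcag
Among the 11 lower genes with a promoter sequence, 2610528A11Rik held these letters elsewhere in its window, and the pair of higher genes with one, Ltf and Dbp, held none of the 3 motifs searched.

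Genes induced by interferon had list medians of 1.10 in cluster 9, 0.88 in cluster 8, 0.62 in cluster 3, 0.50 in cluster 4, 0.39 in cluster 5 and 0.24 in cluster 1. The median was just below 0 in cluster 13, and under 5 members were measured in clusters 12 and 17. Ifi27l2a, an interferon-induced membrane protein gene, was at 168, 41.5 and 227 CPM on days 0, 7 and 42 in cluster 9, at 280, 128 and 413 CPM in cluster 8 and at 90.7, 24.8 and 114 CPM in cluster 4, in each case above the day 0 level at day 42. Isg15, a ubiquitin-like protein induced by interferon, was at 8.24 and 74.0 CPM in cluster 9. Gbp2, a guanylate-binding protein, was instead highest by ratio in clusters 3 (2.42 and 33.3 CPM) and 1 (5.21 and 33.7 CPM). Ifitm1 and Ifitm3, which restrict viral entry, had the lowest medians (-0.30 and 0.12), and Ifitm1 was 2-fold lower in clusters 9 and 13. Only 3 of the 22 listed genes were measured in at least 6 clusters.

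The list of transition-zone genes and simple-epithelial keratins had a median above 0 in 8 of 9 clusters. The median was 1.65 in cluster 1, where 10 of 13 measured members were 2-fold higher against 2.83% of all genes. It was 1.59 in cluster 12, where 8 of 13 were higher and 2 lower against 4.23% and 11.2% of all genes. It was 0.91, 0.79, 0.73, 0.64, 0.42 and 0.32 in clusters 4, 9, 8, 5, 17 and 3, and -0.01 in cluster 13. Krt7, a keratin of simple and transitional epithelium, was at 316, 160 and 980 CPM on days 0, 7 and 42 in cluster 1 and at 387, 404 and 1503 CPM in cluster 12, but at 2322, 2213 and 2266 CPM in cluster 5. Krt20, a keratin of superficial cells, passed 2-fold in the 5 clusters in which it was measured, among them cluster 5 at 394, 122 and 470 CPM. Muc4, a membrane mucin, was measured in cluster 5 alone, at 258, 13.7 and 60.7 CPM. Krt18, which pairs with Krt8 in simple epithelium, had a median of -0.76 and was lower in cluster 3 (72.2 and 21.3 CPM) but higher in cluster 1 (9.52 and 30.3 CPM). Colonocyte markers, a list that shares Krt8 and Krt20 with this one, had a summed level that was higher at day 42 in 7 of 9 clusters, at 212 and 568 CPM on days 7 and 42 in cluster 1, and lower in cluster 12 (1124 and 972 CPM) and cluster 17 (426 and 376 CPM). Over the 9 clusters the sum lay between 126 and 1124 CPM at day 7 and between 263 and 1379 CPM at day 42. In colonocytes it was at 23232 and 20470 CPM. The listed gene Epcam alone had medians over the clusters of 357 and 404 CPM on days 7 and 42, against 426 and 568 CPM for the sum. Cdx2, an intestinal transcription factor, was at 0 in 9 and 7 clusters. The part of colonocyte RNA in these ratios was not tested.

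Wound keratins went in different directions between clusters, and Krt17 shows the split. Krt17 and Krt6a are keratins of migrating and appendage keratinocytes. In cluster 3 Krt17 was at 656, 3788 and 891 CPM on days 0, 7 and 42 and in cluster 5 at 403, 2397 and 487 CPM, close to the day 0 level again. In cluster 1 it was at 445, 383 and 1084 CPM, above both earlier days, and in cluster 8 it stood at 3918, 4389 and 4133 CPM, nearly level. Krt6a was at 549 and 2269 CPM in cluster 1 and at 3274 and 6583 CPM in cluster 12, against 3805 and 2855 CPM in cluster 3. Krt16, the partner of Krt6a, passed 2-fold downward in 4 clusters, among them cluster 5 at 378, 2470 and 596 CPM. Of the list, 13 of 18 measured members were 2-fold higher in cluster 1 (2.83% of all genes) and 10 of 20 in cluster 12 (4.23%), with 0 and 1 lower. Summed keratinocyte markers, which include Krt17, were higher as well, at 17168 and 26356 CPM in cluster 1 and 25518 and 39145 CPM in cluster 12. Neutrophil markers were at 314 and 153 CPM in cluster 1 and 6835 and 508 CPM in cluster 12. The part of the cell mix in these counts was not tested. In the other 7 clusters 1 member passed upward, in cluster 5, and the medians lay between -0.58 and -0.02. There 5 of 21 measured members were 2-fold lower in cluster 5 (against 1.01% of all genes), 3 of 18 in cluster 3 (1.05%), 3 of 15 in cluster 4 (0.551%) and 2 of 14 in cluster 8 (0.834%). In clusters 9, 13 and 17 they were 1 of 7 (0.869%), 1 of 10 (2.65%) and 3 of 10 (3.55%).

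Genes of cell division differed in direction between clusters. Of the cholesterol synthesis list, 11 members were 2-fold lower in at least 1 cluster and 0 were 2-fold higher in any. Cholesterol synthesis had a median of -0.98 in cluster 8 (6 of 13 measured members 2-fold lower, against 0.834% of all genes) and -0.85 in cluster 9 (5 of 11, against 0.869%), and of 0.19 in cluster 1. Idi1, an isoprenoid enzyme of the sterol pathway, was at 86.0 and 30.2 CPM in cluster 8 and at 54.9 and 13.8 CPM in cluster 9, near the day 0 levels of 29.7 and 19.6 CPM. Sqle, the squalene epoxidase, was at 51.1 and 19.7 CPM in cluster 8 but at 35.6 and 60.9 CPM in cluster 1. In cluster 3, which carried the mitotic genes Ube2c and Birc5 among its leading genes, the cell-division list had a median of 0.55, with 5 of 32 members 2-fold higher against 2.06% of all genes. Mki67, the marker of cycling cells, was there at 757, 244 and 504 CPM on days 0, 7 and 42. In cluster 17 the list was at -0.77, with 9 of 28 lower against 3.55% of all genes. Genes of the ribosome, oxidative phosphorylation and desmosomes had medians of cluster medians of -0.02, -0.14 and -0.03.

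**Figure D4:**
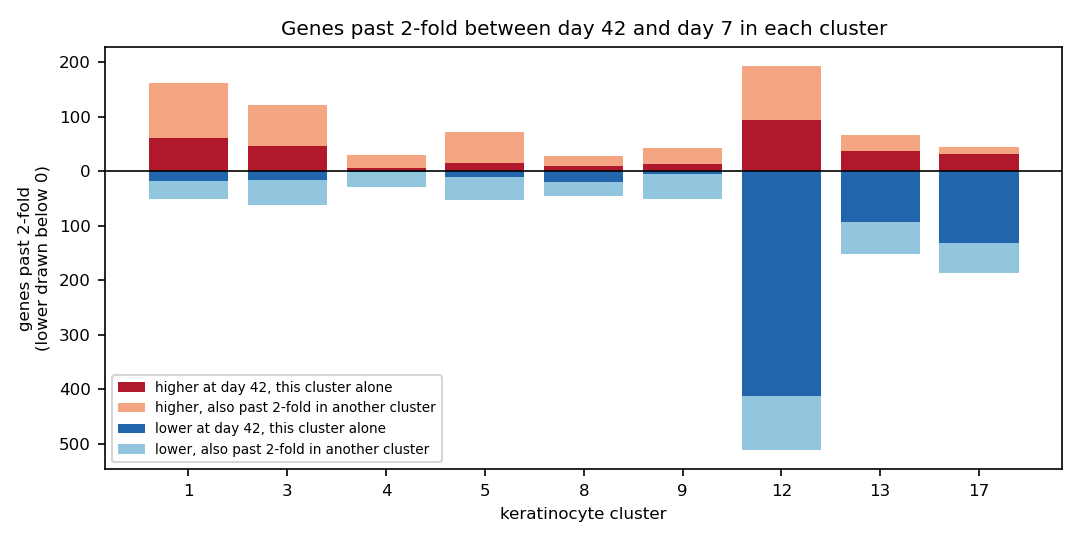
Number of genes past 2-fold between day 42 and day 7 in each keratinocyte cluster, with higher genes above 0 and lower genes below, and dark bars for genes past 2-fold in that cluster alone. Cluster 12 stands apart with 193 higher and 511 lower genes, and clusters 4, 8 and 9 have the fewest.

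The clusters differed widely in how many genes passed 2-fold. In cluster 12, 193 of 4560 measured genes (4.23%) were higher and 511 (11.2%) lower, of which 94 and 413 passed in no other cluster. Cluster 1 had 162 higher (2.83%) and 50 lower (0.873%), and cluster 3 had 122 (2.06%) and 62 (1.05%). In cluster 5, 72 were higher (1.4%) and 52 lower (1.01%), and in cluster 13 there were 66 (1.16%) and 151 (2.65%). Cluster 17 had 45 (0.854%) and 187 (3.55%), and cluster 9 had 42 (0.73%) and 50 (0.869%). Cluster 4 had 30 (0.591%) and 28 (0.551%), and cluster 8 had 28 (0.508%) and 46 (0.834%). Clusters 1, 3 and 5 thus leaned to higher genes, and clusters 12, 13 and 17, the 3 with the fewest cells at day 42, to lower ones. Clusters 12 and 17 had 3835352 and 2210795 UMIs at day 7 but 208866 and 225841 at day 42. There the UMI minimum for a measured gene asked for a higher CPM at day 42 than at day 7. Ltf in cluster 17, at 26.6 CPM but 6 UMIs at day 42, was not measured. Genes higher at day 7 entered more easily in these 2 clusters, and the part of this in their lean was not tested. Over 3150 genes measured in all 9 clusters, the ratios of clusters 4 and 9 were most alike (Pearson's r 0.695) and those of clusters 12 and 13 least (0.0206), a description only, since all clusters share the same 2 libraries.

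Cluster 12 differed between days in the kinds of genes it carried. Its median UMIs per cell were 1672.5 at day 7 and 1010.5 at day 42, with median mitochondrial shares of 5.00% and 0.225%. At day 0 it held 51 cells, and Krt25 and Krt71, keratins of the hair root sheath, were at 46374 and 46368 CPM in them, against 19.3 and 8.34 CPM at day 7 and no UMI at day 42. Among genes with at least 100 CPM on either day that passed 2-fold in at most 2 clusters, a choice made after their values were seen, its lowest ratios were those of Sst, which encodes the hormone somatostatin, the myeloid adaptor genes Tyrobp and Fcer1g and the matrix gene Mgp (1 UMI at day 42). Sst, Tyrobp and Fcer1g had no UMI at day 42 and were at least 17.05-fold, 10.5-fold and 7.37-fold lower against a floor of 3 counts in the cluster, and 10 of 47 cells held 65.0% of the Sst UMIs at day 7. By the same choice its highest ratios were those of the cornified precursor Sprr2d (3.63), the serine protease genes Prss27 (3.03) and Prss22 (2.69) and the Ly6 family gene Lypd2 (2.69). These rested on 82, 91, 101 and 30 UMIs at day 42, of which 10 cells held 89.0%, 63.7%, 72.3% and 80.0%. Summed neutrophil markers in cluster 12 were at 6835 and 508 CPM on days 7 and 42 and macrophage markers at 408 and 23.9 CPM. Fibroblast markers were at 211 and 28.7 CPM and endothelial markers at 168 and 23.9 CPM. T cell markers were at 30.0 and 33.5 CPM, and keratinocyte markers at 25518 and 39145 CPM. The part of these cell types in the counts was not tested.

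**Figure D5:**
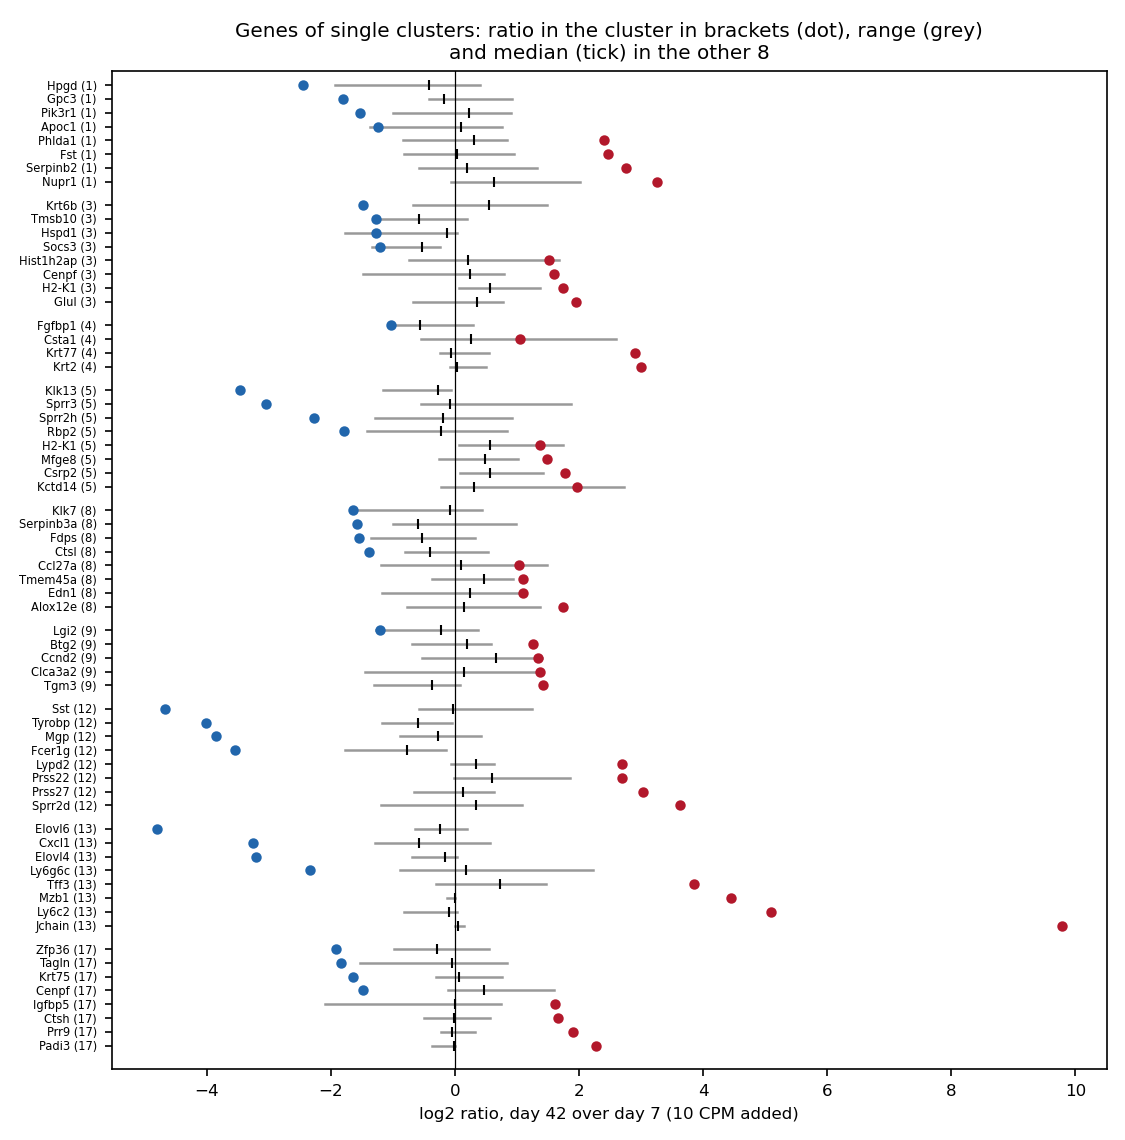
Log2 ratio of day 42 over day 7 for up to 4 genes per direction and keratinocyte cluster (dot, red higher and blue lower), with the range (grey line) and median (tick) of the same gene in the other 8 clusters. Jchain in cluster 13 lies farthest out, and in clusters 1, 5, 8, 12, 13 and 17 most dots lie outside the range of the other clusters.

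Genes that passed 4-fold in exactly 1 cluster, with the other 8 between -0.5 and 0.5, numbered 9 higher (0.112% of 8015 genes measured in at least 1 cluster) and 4 lower (0.0499%), or 12 and 11 with totals that leave out mitochondrial and ribosomal protein genes. Of the 9, 7 were in cluster 13 and were genes of antibody-secreting cells. Jchain, the joining chain of secreted antibodies, had no UMI in cluster 13 at day 7 and 4736 UMIs (8781 CPM) at day 42. At day 0 it had 4438 UMIs (1874 CPM) there, and on each of days 0 and 42 all lay in 7 cells. Mzb1, a chaperone of plasma cells, was at 21.96, 0.0670 and 210 CPM on days 0, 7 and 42, in 6 cells at day 42. The other 5 were immunoglobulin genes, which the naming rule leaves out: Iglv1, Iglc2, Igkv1-110, Igkv1-117 and Ighv11-2. Summed B and plasma cell markers in cluster 13 were at 1909, 0.134 and 9037 CPM on days 0, 7 and 42, and their part in these ratios was not tested.

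The remaining 6 genes of single clusters included 4 of keratinocyte differentiation or its proteases. Krt2, a keratin of the upper epidermis, was at 313, 31.7 and 323 CPM on days 0, 7 and 42 in cluster 4 and at most 4.43 CPM elsewhere at day 42, a log2 ratio of 3.00. Its UMIs lay in few cells, with 97.8% and 87.4% of the count in 10 cells on days 7 and 42, and the ratio was 2.27 without them. Krt2 no longer met the rule for a single cluster in that setting, nor did any of the other 8 higher genes or the 4 lower ones. It also failed the rule with the filter on cells, with 1 CPM added, with the mean of CPM per cell, with cells thinned to 1000 UMIs, with totals that leave out mitochondrial and ribosomal protein genes and with the 5% deepest cells left out. Padi3, which citrullinates proteins of the hair shaft and its sheath, was at 6.42, 17.6 and 124 CPM in cluster 17, where the day 42 value rested on 28 UMIs in 3 cells. Among the lower genes, Sprr2f, a small proline-rich cornified precursor, was at 80.1 and 2.69 CPM in cluster 5, and Klk6, a secreted kallikrein protease, at 51.2 and 0.703 CPM in cluster 8. In cluster 12 the neuroendocrine gene Chgb had 273 UMIs at day 7 and none at day 42, at least 4.96-fold lower against a floor of 3 counts in the cluster, and the helicase gene Ddx27 had 203 UMIs and 1.

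Each of the larger clusters also had genes with at least 100 CPM on either day that passed 2-fold in at most 2 clusters, chosen after their values were seen. In cluster 1 Nupr1, a stress-induced chromatin protein gene, was at 69.2 and 752 CPM (3.27), and Serpinb2 (2.75), Fst (2.46) and Phlda1 (2.40) followed it. Fst encodes follistatin, an activin antagonist, and stood at 1.71, 16.7 and 137 CPM on days 0, 7 and 42. Hpgd, which degrades prostaglandins, went the other way in cluster 1, at 567 and 95.3 CPM. In cluster 3 Glul, the glutamine synthetase, was at 37.3 and 174 CPM, and Cenpf, a kinetochore protein gene, at 668, 156 and 491 CPM on the 3 days. In the differentiating cluster 4, led by Krt10 and Krt1, Krt77 was at 547, 13.1 and 162 CPM, a pattern over the 3 days like that of Krt2. As for Krt2, 10 cells held most of these UMIs, 66.5% at day 7 and 92.04% at day 42.

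By the same choice, in cluster 5 the kallikrein gene Klk13 was at 106, 240 and 12.8 CPM on days 0, 7 and 42, and Sprr3, a cornified precursor of mucosa, at 695, 239 and 20.1 CPM. The 10 richest cells held 95.5%, 83.8% and 50.4% of the Sprr3 UMIs on the 3 days, with 41 and 92 cells holding a UMI on days 7 and 42. In cluster 8, led by Cst6 and Krt79, Klk7 (-1.64), Serpinb3a (-1.58) and the sterol enzyme gene Fdps (-1.54) were lower, and Alox12e, an epidermal lipoxygenase, was at 479, 110 and 391 CPM. In cluster 9 Tgm3, a transglutaminase of the hair follicle and epidermis, was at 330, 94.2 and 270 CPM, and Ccnd2, a cyclin of G1, was higher too (1.34). Alox12e and Tgm3 were thus low at day 7 and near the untreated level at day 42.

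Clusters 13 and 17 rest on 106 and 63 cells at day 42. In cluster 13 the fatty acid elongase genes Elovl6 and Elovl4 were at 57.0, 476 and 7.42 CPM and at 707, 1501 and 154 CPM on days 0, 7 and 42. The day 42 values rest on 4 UMIs in 3 cells and 83 UMIs in 5 cells, and 10 cells held 44.4% and 39.6% of the counts at day 7 and 89.6% and 99.1% at day 0. The sebaceous lipid list had a median of -0.94 there, with 7 of 19 measured members 2-fold lower against 2.65% of all genes. Cxcl1, a neutrophil chemokine, was lower in cluster 13 as well (-3.24). In cluster 17, led by the inner root sheath genes Krt71, Krt25 and Tchh, the hair gene Prr9 was at 332 and 1266 CPM and Krt75, a keratin of the companion layer, at 422 and 128 CPM. The 10 richest cells held 99.7% of the Prr9 count and 98.1% of the Krt75 count of cluster 17 at day 7. The day 42 values rest on 286 UMIs in 3 cells for Prr9 and 29 UMIs in 4 cells for Krt75.

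A gene could also pass 2-fold upward in at least 2 clusters and downward in at least 2 others, and 3 of 5755 genes measured in at least 4 clusters (0.0521%) did so. Sprr1a, a cornified precursor, was higher in cluster 12 (591 and 2131 CPM) and cluster 1 (16.2 and 42.5 CPM) and lower in cluster 5 (2728 and 1198 CPM) and cluster 17 (108 and 13.3 CPM, the latter 3 UMIs). Nr4a1, an immediate-early nuclear receptor, was higher in clusters 1, 3 and 5 (ratios 1.22, 1.03 and 1.02) and lower in clusters 12 and 17 (-1.72 and -1.40). Krt4, a keratin of mucosal suprabasal cells, was at 3356, 709 and 2016 CPM on days 0, 7 and 42 in cluster 12. It was at 248, 97.7 and 207 CPM in cluster 9, but at 455, 153 and 59.4 CPM in cluster 1 and 634, 279 and 123 CPM in cluster 3. The day 0 cells of cluster 12 carried hair root sheath keratins, as given above. With cluster 12 left out, none of the 3 met this rule.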

How the data were processed

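The authors deposited UMI counts per gene and cell, as whole numbers without normalization, for 31053 genes and 37080 cells. The deposited cell table gave each cell's day, cluster number, cell type name and size factor, a ratio that the authors computed per cell, which served here only to check the order of the cells. The authors used Cell Ranger 3.0.2 and build mm10, per the submitters' processing notes. The filter on cells and the clustering method are not given in the sources used here. Identifiers were found in GENCODE M21 (GRCm38) for 30934 genes (99.6%), and gene coordinates come from it.

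Calculations used Python 3.11.15, numpy 2.4.6, scipy 1.17.1 and pandas 2.3.3, figures matplotlib 3.10.9, and the steps were tested on simulated data. Library totals were 151886649 UMIs at day 7 and 72258639 at day 42. With 1 library a day no p-values or standard errors are given. Shared genes were those past 2-fold in at least 6 of 9 clusters. Named genes were up to 15 shared genes per direction by median ratio, up to 2 single-cluster genes per direction and cluster, up to 6 opposed genes, and the 2 highest and 2 lowest members of each list described, leaving out mitochondrial, ribosomal, haemoglobin, immunoglobulin, sex-linked and predicted genes. The clusters and gene lists were chosen with earlier results of these data known. The genes added at 1.5-fold, the largest genes of each cluster, the clock list and the promoters were chosen after these values were seen, as were list examples outside the rule.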

Additional observations from a re-analysis of the deposited data

Results flagged for a closer look

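Among genes measured in at least 4 keratinocyte clusters, 3 differed in direction between clusters, past 2-fold upward in at least 2 and downward in at least 2. The gap between the highest and the lowest cluster's log2 ratio (day 42 over day 7) was 4.17 for Sprr1a, from 1.83 in cluster 12 to -2.34 in cluster 17. For Nr4a1 it was 2.94, from 1.22 in cluster 1 to -1.72 in cluster 12. For Krt4 it was 2.73, from 1.49 in cluster 12 to -1.23 in cluster 1. The difference between clusters was not tested in any of the 3, since each cluster has 1 value a day.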

How the results depend on the processing

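No paired analysis was possible because each day was 1 pooled library. The main counts were 3 shared higher, 12 shared lower, 9 single-cluster higher, 4 single-cluster lower and 3 opposed genes. With 1 CPM added in place of 10, they were 6 shared higher, 4 single-cluster higher and 8 opposed, and with 50 CPM added 0 shared higher, 7 shared lower and 0 opposed. Median-of-ratios size factors left 1 opposed gene and shifted the median of all genes by -0.11 in cluster 3 and by less than that elsewhere. Totals without mitochondrial and ribosomal protein genes gave 6 shared higher and 11 single-cluster lower. The mean of CPM per cell gave 5 single-cluster higher and 6 opposed. Thinning cells to 1000 UMIs gave 0 shared higher, 4 single-cluster higher, 8 single-cluster lower and 6 opposed, and 11 of the 12 shared lower genes remained. Subtracting free RNA gave 38 single-cluster higher and 9 opposed. Leaving out the 10 richest cells of each gene gave 0 shared higher, 1 single-cluster higher, 32 single-cluster lower and 16 opposed, and kept 6 of the 12 shared lower genes. Without cluster 12 there were 2 single-cluster lower and 0 opposed genes, and the same 12 shared lower genes remained. Asking for 1.5-fold gave 16 shared higher and 24 shared lower, asking for all 9 clusters 0 and 3, and asking for 5 clusters 8 shared higher. A filter on cells (1000 UMIs, 500 genes, at most 20% mitochondrial UMIs) left 1 opposed gene. It moved the share at day 7 to 24.2% in cluster 3, 11.998% in cluster 9, 15.3% in cluster 12 and 11.5% in cluster 13, and at day 42 to 3.98% in cluster 8, 0.879% in cluster 12 and 1.09% in cluster 13. Of the alternatives chosen after seeing the data, leaving out clusters 13 and 17 gave 1 shared higher and 6 shared lower, and leaving out the 5% deepest cells, as likely doublets, left 1 opposed gene. The causes of these differences were not tested. No list median at or past 0.3 and no median of a named gene turned its sign, but the medians of 5 lists below that size (desmosome, hair follicle, ribosome, immediate early and Wnt, BMP or Notch genes) did under at least 1 alternative, and of the genes shared by clusters S100a8, S100a9, Wfdc17, Cxcl2, Retnlg, Hbb-bs and Hbb-bt passed 2-fold the other way in 1 or 2 clusters, Cxcl2 and Retnlg only where they missed the minimum for a measured gene. A gene value was counted as moved when it changed by more than the longer arm of a 95% counting interval. That interval was of the log2 ratio without added CPM in 1 cluster, the middle-ranked one for medians and gaps. Where a day had no UMI in that cluster, the interval was so wide that no value could count as moved. A share was counted as moved when it left its 95% counting interval. A count was moved when it changed by over 1.5 times, and a list median when it changed by more than 1 SD over clusters. Over all alternatives, 79 gene values, 32 counts, 8 list medians and 7 shares moved, and 205, 38, 268 and 11 did not. The day 42 counts of clusters 12, 13 and 17 limit what can be measured in them.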

Other observations

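Genes of the circadian clock were listed after Dbp was seen among the shared genes, so their values are a description. Of the listed genes 7 were measured in at least 6 keratinocyte clusters, and for these the median log2 ratio of day 42 over day 7 was 1.29 for Dbp, 1.07 for Nr1d1, 0.82 for Bhlhe41, 0.67 for Tef, 0.56 for Per3, 0.42 for Nr1d2 and 0.07 for Clock. The other genes, among them Per1, Per2, Cry1, Arntl and Nfil3, were measured in at most 3 clusters and are not described. Nr1d1 was at 12.6 and 66.2 CPM on days 7 and 42 in cluster 3, at 25.8 and 91.0 CPM in cluster 9 and at 37.1 and 68.1 CPM in cluster 1, and at 50.7, 84.3 and 54.9 CPM at day 0. The day 42 level of Nr1d1 was above day 7 in all 9 clusters, 8 of which met the minimum for a measured gene. Whether tissue was taken at the same hour on each day was not tested and is not given in the sources used here.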
